A study of Mus musculus with 6 samples.

Results

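Pyruvate made by glycolysis from glucose or fructose enters the mitochondrion through the mitochondrial pyruvate carrier, a heterodimer of MPC1 and MPC2. Inside, the pyruvate dehydrogenase complex turns it into acetyl-CoA. The complex is switched off when PDH kinases phosphorylate the alpha subunit of its first enzyme and switched on again when PDH phosphatases remove the phosphate. In the liver this step helps to set how much carbohydrate carbon reaches the citrate cycle and lipogenesis as acetyl-CoA. The 10 genes described here were chosen by symbol: *Mpc1* and *Mpc2* (carrier), *Pdha1* and *Pdhb* (E1, the decarboxylating enzyme), *Dlat* (E2, the acetyltransferase core), *Pdk1*, *Pdk2* and *Pdk4* (kinases), and *Pdp1* and *Pdp2* (phosphatases). All 10 were found among the 56691 genes of the deposited table.

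The RNA came from the liver of pregnant mice on a high-fructose diet (HFrD). The 3 KPF libraries were from h*Chrebp* KO dams, in which *Chrebp* flox/flox was combined with 1 copy of Alb-Cre, a transgene active in hepatocytes. The 3 WPF libraries, called WT in the labels, were from *Chrebp* flox/flox dams without Cre. Both groups carried the floxed alleles and both were pregnant and received fructose. There was no group on normal chow in this series, and the age of the dams was not given in the sources used here. The replicates were numbered 1, 2 and 3 for KPF and 2, 3 and 4 for WPF. The study describes its replicates as biological.

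*Mlxipl*, the gene that encodes ChREBP, a transcription factor that responds to carbohydrate and drives glycolytic and lipogenic genes, was examined first. Its CPM (read counts normalised to the TMM-scaled library size) were 179, 700 and 849 in KPF replicates 1 to 3, against 961, 1260 and 879 in WPF replicates 2 to 4. The KPF libraries were all below the WPF libraries, but KPF replicate 3 lay just under WPF replicate 4. The log2 fold change was -0.84 (SE 0.53), with an adjusted p of 0.584 in edgeR. The floxed part is exon 2, whereas the counts cover the whole gene, so a transcript without that exon is still counted.

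The 6 libraries held 10694496 to 14496630 counted reads. KPF replicate 2 stood apart: the 7 striated muscle markers summed to 1611 FPKM (counts normalised to exonic length and library total) there, against 1.23 to 5.86 FPKM in the other 5 libraries, so the calls, medians and fold changes that move most without this library are also given without it. The 5 hepatocyte markers, *Alb*, *Apoa1*, *Ttr*, *Serpina1c* and *Cps1*, were all present, as the label liver requires, and summed to 37134 to 44682 FPKM in KPF and 52214 to 71992 FPKM in WPF. The 5 stellate cell and fibroblast markers summed to 16.5 to 146 FPKM in KPF and 10.6 to 15.7 FPKM in WPF. The highest of these sums was that of KPF replicate 2, the library with the muscle transcripts, where *Des* alone was at 129 FPKM. The log2 fold changes were 4.37 for *Des* (1.85 without that library), 2.22 for *Col1a1*, 1.55 for *Col3a1*, 0.80 for *Dcn* and -0.35 for *Lrat*. The hepatocyte and the stellate cell sums were both separated between the groups on the FPKM scale, and their part in the results below was not tested. *Alb* made up the largest part of the hepatocyte sum. On the scale of TMM-scaled CPM 0 of the 5 hepatocyte markers were separated, with *Alb* at 90176 in KPF replicate 3 and 89427 in WPF replicate 4. In bulk liver RNA, fewer cells of a type and less RNA per cell cannot be told apart.

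Across the 10866 genes with a mean of at least 1 FPKM, edgeR's quasi-likelihood test called 0 genes at an adjusted p under 0.05, while 1176 genes had an unadjusted p under 0.05. DESeq2 called 156 genes at the adjusted threshold. By a looser rule, an unadjusted p under 0.05 in edgeR with at least a 1.5-fold difference, 633 genes (5.83%) were higher and 433 genes (3.98%) were lower in KPF. With library totals in place of the TMM factors these counts were 370 and 727, and the median log2 difference of all genes tested moved from 0.016 to -0.12. Of the 10 pyruvate genes, 3 were lower by the looser rule (*Pdk1*, *Dlat* and *Pdhb*) and 0 were higher, against backgrounds of 3.98% and 5.83% of all genes tested. The median log2 fold change of the 10 genes was -0.43, beside 0.016 over all genes tested, and -0.65 without KPF replicate 2. At the adjusted threshold 0 of the 10 passed in edgeR, where the background was 0%. In DESeq2 *Pdk1* (adjusted p = 0.0023) and *Dlat* (adjusted p = 0.0463) passed, where 1.44% of all genes did. Both also passed in edgeR without the filter on low genes, where 1.06% of all genes did, and in a fit to all detected genes adjusted over the same 10866, where 2.65% did. That last fit was the first one run, and the stricter fit was chosen as the main one after both had been seen.

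The 250 bases before the start site of *Pdk1*, *Dlat* and *Pdhb* are shown because these 3 genes were lower together in KPF, and those of *Pdk2* because it was not. They are RefSeq sequences on GRCm38.p6, a build other than the GRCm39 of the table, and lie at chr2:71872974-71873223 on the plus strand (*Pdk1*, the first of its 2 listed starts), and on the minus strand at chr9:50659781-50660030 (*Dlat*), chr14:8172993-8173242 (*Pdhb*) and chr11:95041372-95041621 (*Pdk2*, the first of its 2 listed starts). Capitals mark CACGTG, a palindromic E-box, and GGGCGG, the GC box bound by SP1. Each is marked on the strand shown or, for GGGCGG, also as CCGCCC.
Pdk1: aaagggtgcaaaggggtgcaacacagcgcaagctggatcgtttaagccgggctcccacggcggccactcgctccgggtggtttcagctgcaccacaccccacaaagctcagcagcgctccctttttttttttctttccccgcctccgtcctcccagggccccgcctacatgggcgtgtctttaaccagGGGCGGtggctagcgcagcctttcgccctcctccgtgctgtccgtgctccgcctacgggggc
Dlat: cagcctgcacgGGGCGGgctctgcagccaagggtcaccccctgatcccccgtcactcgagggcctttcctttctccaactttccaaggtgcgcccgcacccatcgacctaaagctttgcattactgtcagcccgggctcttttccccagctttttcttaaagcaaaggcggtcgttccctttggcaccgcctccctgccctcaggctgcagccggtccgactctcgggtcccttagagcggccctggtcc
Pdhb: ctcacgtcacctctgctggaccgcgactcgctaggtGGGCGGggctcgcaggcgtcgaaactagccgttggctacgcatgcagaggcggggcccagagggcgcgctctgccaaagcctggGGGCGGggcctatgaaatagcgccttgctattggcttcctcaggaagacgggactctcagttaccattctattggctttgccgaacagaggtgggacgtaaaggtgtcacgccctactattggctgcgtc
Pdk2: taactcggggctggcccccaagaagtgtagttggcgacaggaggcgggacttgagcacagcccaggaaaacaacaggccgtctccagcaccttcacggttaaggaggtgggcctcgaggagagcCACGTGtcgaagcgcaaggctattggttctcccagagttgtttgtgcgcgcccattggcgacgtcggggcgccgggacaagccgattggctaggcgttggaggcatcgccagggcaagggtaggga

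In these windows CACGTG occurred in *Pdk2*, beginning 126 bases before the start site, and not in *Pdk1*, *Dlat* or *Pdhb*, while GGGCGG occurred in *Pdk1*, *Dlat* and *Pdhb* and not in *Pdk2*. The latter was no mark of the lower genes, since *Mpc1*, *Mpc2* and *Pdp2*, which did not pass, held GGGCGG too. Of all 32851 RefSeq windows of this length 6.02% held CACGTG and 32.7% held GGGCGG. Windows were listed for 9 of the 10 genes (*Pdp1* had none), and *Pdp2* was the other one with CACGTG, 219 bases before its start. The carbohydrate response element bound by ChREBP was searched in its perfect form, an exact pair of CACGTG with 5 free bases between. This form was in 0 of the 32851 windows. That search therefore cannot tell these genes from others. A looser pair of CANNTG, where N is any base, with the same spacing was in 0.639% of all windows and in 0 of the members. This form still requires CA and TG at the ends of each CANNTG, so any element that departs from it is missed. It was also so rare among all windows that its absence from the members cannot tell them from other genes. Whether these windows hold a carbohydrate response element of another form was not tested. Altogether 13 short motifs were searched on both strands after the values had been seen, and the ACGTG core of the hypoxia element, which overlaps CACGTG, was in *Pdhb*, *Pdk2* and *Pdp2* and in 16.6% of all windows. These are matches of letters and not sites of binding.

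Among the kinases, *Pdk1* (ENSMUSG00000006494, chr2:71703568-71734202 in GRCm39), which encodes a kinase that is also a target of the hypoxia-inducible factor HIF1, differed most. *Pdk1* was at 10.4, 17.5 and 16.7 CPM in KPF replicates 1 to 3, and at 61.5, 66.0 and 28.1 CPM in WPF replicates 2 to 4. All KPF libraries were below all WPF libraries, and WPF replicate 4 was well below the other WPF libraries. *Pdk1* was 3.49-fold lower in KPF (log2 fold change -1.80, SE 0.37, 95% interval -2.67 to -0.93). The edgeR p was 0.0015 before and 0.416 after adjustment over all genes. The exact two-sided permutation test gave 0.1, which is the smallest p that 3 against 3 libraries allow. Without KPF replicate 2 the log2 fold change of *Pdk1* was -1.95, and without WPF replicate 4 it was -2.11.

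*Pdk2* (ENSMUSG00000038967, chr11:94917084-94932180), the kinase most widely expressed in liver and other tissues, was at 37.0, 94.8 and 40.8 CPM in KPF, against 53.9, 38.9 and 54.5 CPM in WPF. KPF replicate 2, the library with the muscle transcripts, was the highest of all 6, and the other KPF libraries lay near the lowest WPF library. The *Pdk2* log2 fold change was 0.23 (SE 0.39, 95% interval -0.67 to 1.13) with all libraries and -0.34 without KPF replicate 2, and neither passed the test (adjusted p = 0.840 and 0.656 in edgeR).

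*Pdk4* (ENSMUSG00000019577, chr6:5483351-5496309), the kinase known for its response to fasting and PPARalpha, was covered by few reads. Its counts were 82, 44 and 33 in KPF and 107, 176 and 50 in WPF, which correspond to 7.81, 3.89 and 3.17 CPM against 9.25, 12.4 and 2.93 CPM. WPF replicate 4 was the lowest of the 6 libraries and the groups overlapped. The log2 fold change was -0.72 (SE 0.57, 95% interval -2.04 to 0.60); the interval holds both a lower and a higher level in KPF. Without WPF replicate 4 it was -1.13, with an edgeR p of 0.0379 and an adjusted p of 0.436.

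**Figure D1:**
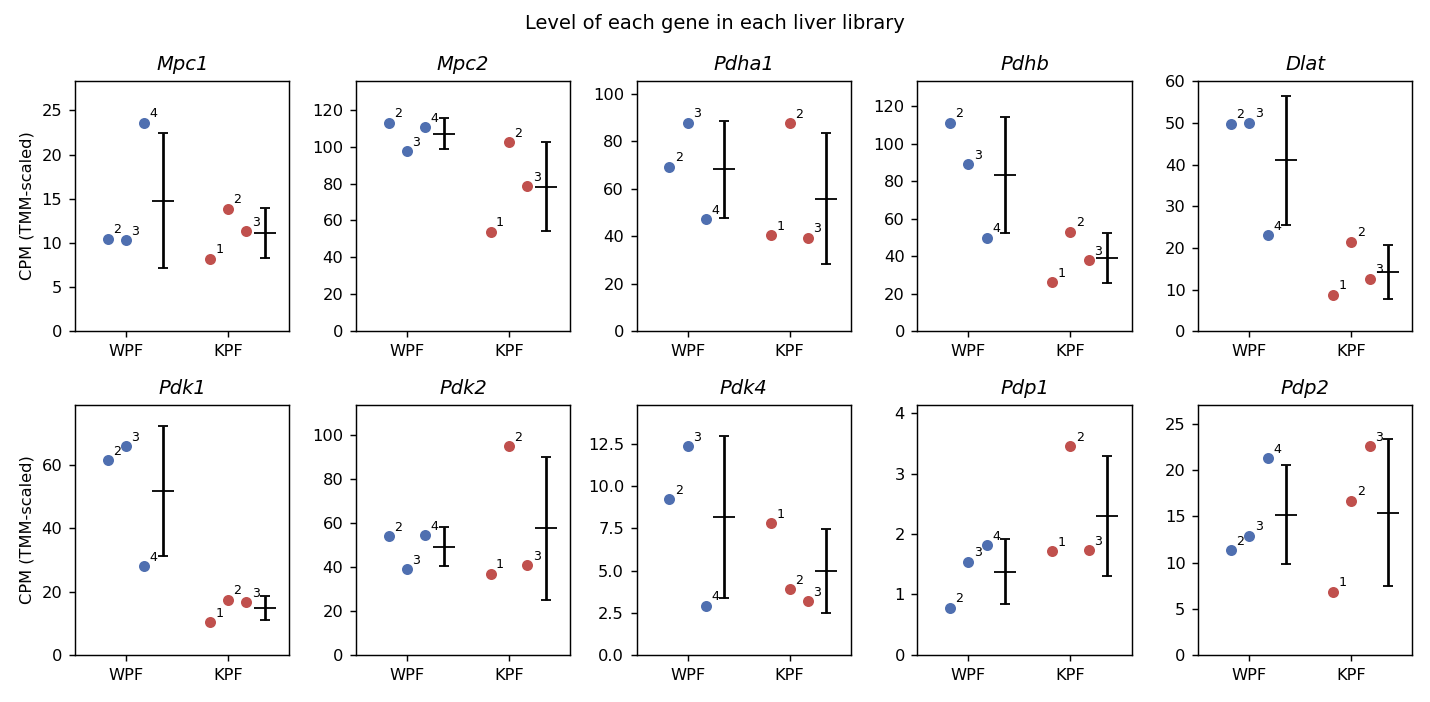
TMM-scaled CPM (y axis, from 0, each panel with its own scale) of the 10 genes in the 3 WPF (blue) and 3 KPF (red) libraries. Points carry the replicate number, and black bars give mean and SD. *Pdk1* and *Dlat* do not overlap between the groups, with *Pdk1* at 10.4 to 17.5 CPM in KPF and 28.1 to 66.0 CPM in WPF.

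Per length, *Pdk2* was the highest of the 3 kinases in every library. *Pdk2* FPKM was 11.5, 29.8 and 11.6 in KPF and 15.2, 13.3 and 20.3 in WPF. *Pdk1* FPKM was 1.31, 2.24 and 1.93 in KPF and 7.05, 9.20 and 4.26 in WPF. Both groups thus kept the order of *Pdk2* above *Pdk1* per length. In counts, *Pdk1* was above *Pdk2* in WPF replicates 2 and 3 (712 against 624 and 939 against 553). The order thus rests on the exonic lengths of 7779 bases for *Pdk1* and 3163 for *Pdk2*, which need not be those of the expressed transcripts. The order of *Pdk1* and *Pdk4* was not the same in each library: *Pdk4* FPKM was 2.18, 1.10 and 0.81 in KPF and 2.35, 3.82 and 0.98 in WPF, so that *Pdk4* was above *Pdk1* only in KPF replicate 1.

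As a share of the summed FPKM of these kinases, *Pdk1* made up 8.76%, 6.76% and 13.4% in KPF and 28.7%, 34.9% and 16.7% in WPF. The groups did not overlap in this share, though KPF replicate 3 and WPF replicate 4 were close. *Pdk2* made up 76.7%, 89.9% and 80.9% in KPF and 61.8%, 50.6% and 79.5% in WPF, and here KPF replicate 1 lay below WPF replicate 4. The summed kinase level was 20.8 ± 10.7 FPKM (SD, n = 3) in KPF and 25.5 ± 0.876 FPKM (SD, n = 3) in WPF, and overlapped. These shares and the ratios below compare messenger RNA levels within a library, do not depend on the scaling between libraries, and were not tested.

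**Figure D2:**
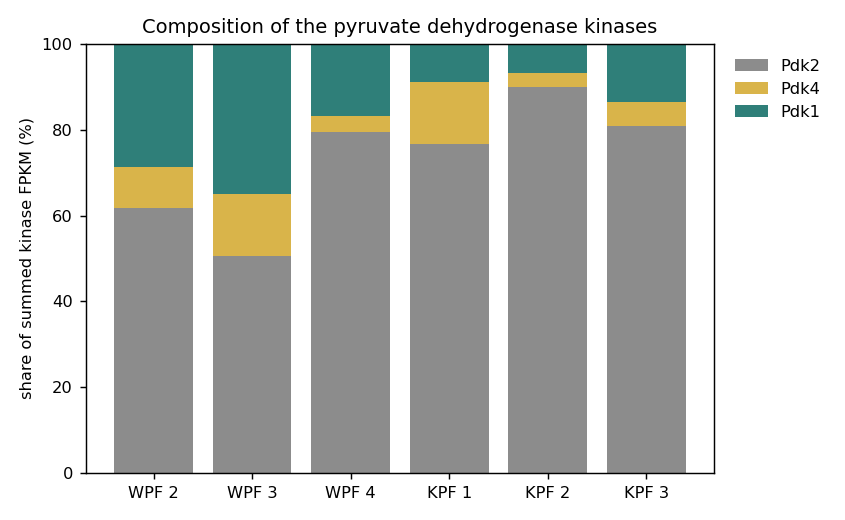
Share (%) of *Pdk1*, *Pdk2* and *Pdk4* in their summed FPKM (y axis) in each library (x axis). The *Pdk1* part is 6.76% to 13.4% in the KPF libraries and 16.7% to 34.9% in the WPF libraries.

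Of the complex itself, *Dlat* (ENSMUSG00000000168, chr9:50545933-50571080), the E2 subunit that carries the lipoyl groups and forms the core of the complex, was at 8.76, 21.5 and 12.6 CPM in KPF, against 49.9, 50.1 and 23.1 CPM in WPF. The groups did not overlap, but KPF replicate 2 and WPF replicate 4 differed by little. *Dlat* was 2.87-fold lower in KPF (log2 fold change -1.52, SE 0.42, 95% interval -2.49 to -0.55). Its edgeR p was 0.0071 before and 0.430 after adjustment, and the exact permutation test again gave its smallest possible p of 0.1. Without KPF replicate 2 the log2 fold change of *Dlat* was -1.95. *Pdk1* and *Dlat* were the 2 of 10 genes whose groups did not overlap with KPF lower, where 8.15% of all genes tested showed this, and 0 of 10 did so with KPF higher, where 7.55% of all genes did.

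*Pdhb* (ENSMUSG00000021748, chr14:14296748-14303777), the beta subunit of E1, was at 26.2, 53.0 and 37.9 CPM in KPF, against 111, 88.9 and 49.8 CPM in WPF. KPF replicate 2 was above WPF replicate 4, so the groups overlapped. *Pdhb* was 2.13-fold lower in KPF (log2 fold change -1.09, SE 0.37, 95% interval -1.96 to -0.22), with an edgeR p of 0.0204 and an adjusted p of 0.430. It no longer passed the looser rule when KPF replicate 1 (unadjusted p = 0.0630), KPF replicate 3 (unadjusted p = 0.0540), WPF replicate 2 (unadjusted p = 0.0783) or WPF replicate 3 (unadjusted p = 0.0528) was left out of the edgeR fit, where its log2 fold change was -0.83 to -1.07. *Pdk1* and *Dlat* passed it in every fit that left out 1 library.

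*Pdha1* (ENSMUSG00000031299, chrX:158905205-158921409), the alpha subunit of E1 and the one that the kinases phosphorylate, was at 40.4, 87.7 and 39.3 CPM in KPF, against 69.3, 87.7 and 47.1 CPM in WPF. KPF replicates 1 and 3 were below every WPF library and KPF replicate 2 was level with the highest one. The log2 fold change was -0.29 (SE 0.39, 95% interval -1.19 to 0.61; adjusted p = 0.804 in edgeR). Without KPF replicate 2 it was -0.78 (SE 0.31), with an edgeR p of 0.0400 and an adjusted p of 0.489. *Pdha1* and *Mpc2* were the 2 genes that raised the count of lower genes from 3 to 5 when that library was left out, where 4.48% of all genes were lower.

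**Figure D3:**
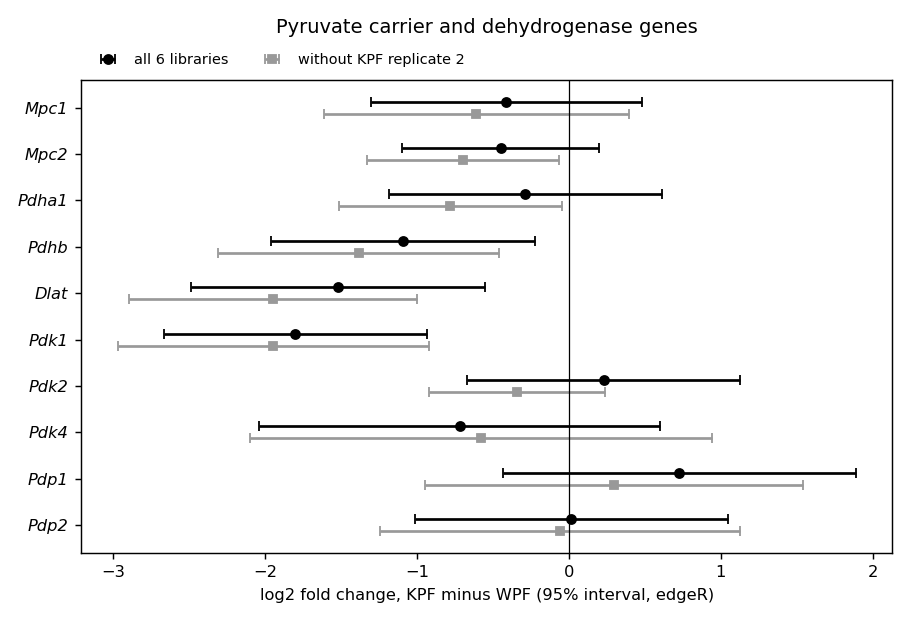
Log2 fold change of KPF against WPF (x axis) with its 95% interval derived from the edgeR p, for all 6 libraries (black circles) and without KPF replicate 2 (grey squares). The intervals of *Pdhb*, *Dlat* and *Pdk1* lie below 0 in both, and those of *Mpc2* and *Pdha1* only without that library.

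The subunits also differed in proportion. Per length, *Pdhb* was at 0.627, 0.585 and 0.933 times the level of *Pdha1*in KPF, against 1.55, 0.980 and 1.02 times in WPF. The KPF ratios were all below the WPF ratios, with KPF replicate 3 close to WPF replicate 3. *Dlat* stood at 0.166, 0.187 and 0.245 times *Pdha1*in KPF, against 0.550, 0.436 and 0.375 times in WPF. This ratio and that of *Pdk1* to *Pdk2* were added after the values had been seen. The *Dlat* ratio did not overlap either, and KPF replicate 2 lay between the other KPF libraries on it. *Pdk1* to *Pdk2* was 0.114, 0.0751 and 0.166 in KPF and 0.464, 0.691 and 0.210 in WPF.

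**Figure D4:**
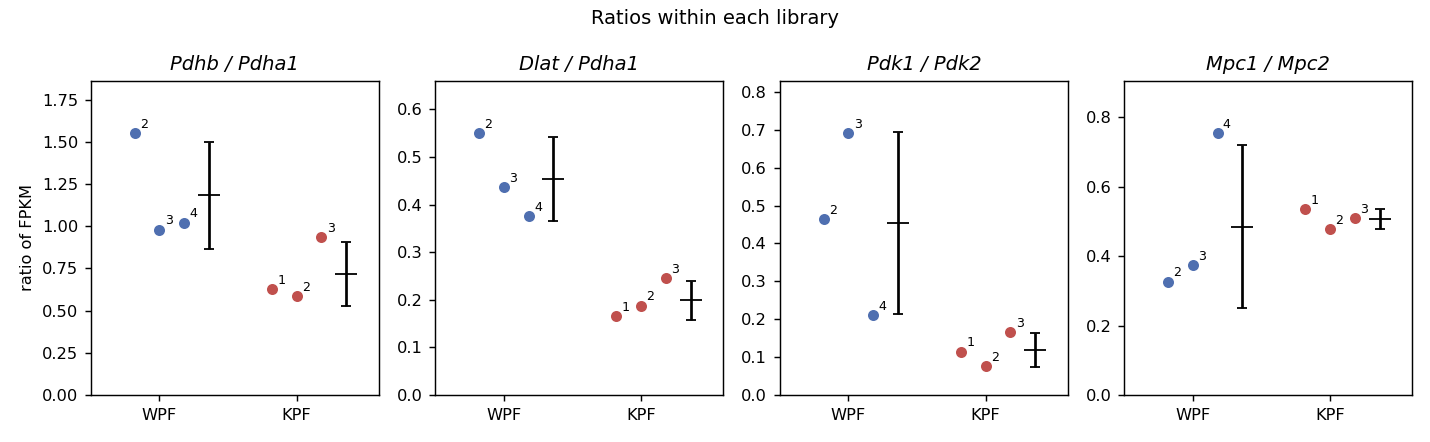
Ratios of FPKM (y axis, from 0) within each library for 4 pairs of genes, in WPF (blue) and KPF (red), with replicate numbers and with mean and SD in black. *Pdhb* to *Pdha1* is 0.585 to 0.933 in KPF and 0.980 to 1.55 in WPF, whereas *Mpc1* to *Mpc2* overlaps.

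The other parts of the complex showed smaller differences. *Dld*, the E3 subunit shared with other dehydrogenases, had a log2 fold change of -0.27 (SE 0.24) and *Pdhx*, the E3-binding protein, of -0.22 (SE 0.22). Of the 4 genes on this list 2 were tested and 0 passed in either direction. *Pdk3* and *Pdpr*, the regulatory subunit of the phosphatase, were below the minimum of 1 FPKM.

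For the carrier, *Mpc2* (ENSMUSG00000026568, chr1:165288206-165308783) was at 53.9, 102 and 78.6 CPM in KPF, against 113, 97.4 and 110 CPM in WPF. KPF replicates 1 and 3 were below every WPF library, and KPF replicate 2 was above WPF replicate 3. The log2 fold change of *Mpc2* was -0.45 (SE 0.28, 95% interval -1.10 to 0.20; adjusted p = 0.580 in edgeR). Without KPF replicate 2 it was -0.70 (SE 0.27), with an edgeR p of 0.0344 and an adjusted p of 0.483.

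*Mpc1* (ENSMUSG00000023861, chr17:8501736-8516493) was at 8.19, 13.9 and 11.3 CPM in KPF, against 10.5, 10.3 and 23.6 CPM in WPF. WPF replicate 4 was highest and the other 5 libraries overlapped. The log2 fold change was -0.41 (SE 0.38, 95% interval -1.30 to 0.48), and it was 0.092 without WPF replicate 4, so the sign rested on that library. Leaving out KPF replicate 2 gave -0.61. *Mpc1* overlaps 4930506C21Rik on the opposite strand, which had 3 to 52 reads, and has a near copy, *Mpc1-ps*, with 8 to 33 reads. Whether counting used strand was not given in the sources used here, so reads of such partners cannot be told apart. The *Mpc1* to *Mpc2* ratio per length was 0.535, 0.478 and 0.509 in KPF and 0.326, 0.374 and 0.754 in WPF.

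The phosphatases did not pass the test. *Pdp2* (ENSMUSG00000048371, chr8:105318083-105325658), the isoform usually described as insulin-responsive, was at 6.86, 16.7 and 22.6 CPM in KPF, against 11.3, 12.9 and 21.3 CPM in WPF. KPF replicates 1 and 3 were the lowest and the highest of all 6 libraries. The log2 fold change was 0.016 (SE 0.44, 95% interval -1.01 to 1.04), and -0.057 without KPF replicate 2. *Pdp1* (ENSMUSG00000049225, chr4:11958184-11966452), the calcium-stimulated isoform, was below the minimum of 1 FPKM and was not among the genes tested. *Pdp1* counts were 18, 39 and 18 in KPF and 9, 22 and 31 in WPF, with a log2 fold change of 0.73 (SE 0.50, 95% interval -0.43 to 1.89) that carries no adjusted p. It was 0.30 (SE 0.53) without KPF replicate 2.

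Per length, *Pdp2* was above *Pdp1* in every library, at 76.1% to 91.1% of their sum in KPF and 86.9% to 92.2% in WPF. The summed FPKM of the 3 kinases was 9.65, 9.01 and 3.66 times that of the phosphatases in KPF and 12.8, 9.31 and 5.23 times in WPF. The groups overlapped in this ratio, and its range within each group was wider than the distance between the means of 7.44 and 9.12.

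The neighbouring steps were read from lists of pathway genes. Of 14 genes of pyruvate supply and its other fates 12 were tested, and 4 were lower and 2 higher in KPF by the looser rule. The median of this list was a log2 fold change of 0.26. *Pklr*, the liver pyruvate kinase, was at 11.1, 18.3 and 11.9 CPM in KPF, against 149, 137 and 24.5 CPM in WPF (log2 fold change -2.91, SE 0.64). *Me1*, which makes pyruvate and NADPH from malate, was at 6.86, 9.20 and 9.80 CPM in KPF, against 92.4, 157 and 14.7 CPM in WPF (log2 fold change -3.35, SE 0.76). *Pcx*, the pyruvate carboxylase that makes oxaloacetate, had a log2 fold change of -0.91 (SE 0.29). In all 3 genes the groups were separate and WPF replicate 4 was the WPF library nearest to KPF. The 2 higher genes, *Ldhb*, the heart-type lactate dehydrogenase subunit, and *Pck1*, of gluconeogenesis, were at 41.5 and 1721 CPM in KPF replicate 2 and lower in each of the other libraries. Their log2 fold changes of 4.39 and 1.85 became 1.26 and 0.46 without it. Without that library 3 genes of the list were lower (*Pklr*, *Me1* and *Pcx*) and 2 were higher (*Ldhb* and *Ldha*, the muscle-type lactate dehydrogenase subunit), *Slc16a1* and *Pck1* no longer passed, and the median was 0.044.

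Downstream of acetyl-CoA, 5 of the 6 genes of citrate export and lipogenic use of acetyl-CoA were lower and 0 were higher, with a median log2 fold change of -2.67, and the same 5 were lower without KPF replicate 2. *Fasn*, the fatty acid synthase, was at 147, 176 and 161 CPM in KPF, against 2540, 2085 and 241 CPM in WPF. *Acly*, which splits exported citrate into acetyl-CoA, was at 37.2, 48.6 and 51.9 CPM in KPF, against 459, 647 and 54.6 CPM in WPF. *Acacb*, *Acss2* and *Acaca* had log2 fold changes of -2.41, -2.80 and -2.54, with adjusted p-values of 0.416 to 0.430 in edgeR. In *Fasn* and *Acly*, as in *Pdk1*, *Dlat* and *Pdhb*, WPF replicate 4 was the lowest WPF library. *Slc25a1*, the mitochondrial citrate carrier, had a log2 fold change of -0.50 (SE 0.31) and did not pass.

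In the citrate cycle 1 of 16 genes was lower and 0 were higher, and the median log2 fold change was -0.029. That gene was *Cs*, citrate synthase, which joins acetyl-CoA to oxaloacetate. *Cs* was at 47.5, 94.6 and 53.1 CPM in KPF, against 151, 185 and 74.1 CPM in WPF, where KPF replicate 2 was above WPF replicate 4 (log2 fold change -1.07, SE 0.42, adjusted p = 0.438 in edgeR). Without KPF replicate 2, 4 of the 16 genes were lower and the median was -0.47: *Cs* (-1.45), *Suclg1* (-0.73), of succinyl-CoA ligase, and *Sdhc* (-0.68) and *Sdhd* (-0.59), the membrane anchors of succinate dehydrogenase. *Dlst*, the E2 subunit of the 2-oxoglutarate dehydrogenase and the counterpart of *Dlat*, had a log2 fold change of 0.0071 (SE 0.22).

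**Figure D5:**
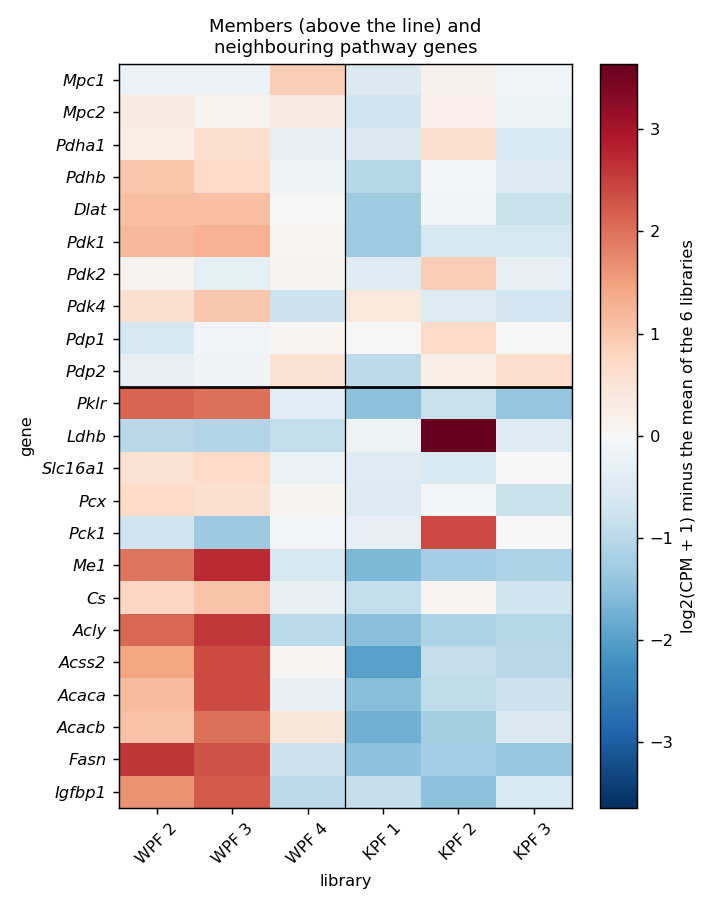
Log2(CPM + 1) minus the mean of the 6 libraries (colour) for the 10 genes (above the line) and for the tested pathway genes that passed the looser rule (below it), in each library. WPF replicates 2 and 3 are high in *Pdhb*, *Dlat*, *Pdk1* and the lipogenic genes, and WPF replicate 4 lies nearer to the KPF libraries.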

How the data were processed

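Poly(A) RNA was sequenced from 3 KPF and 3 WPF livers. For each gene the authors deposited its unnormalised read count and its FPKM value. The submitters' processing notes name cutadapt 1.9.1, HISAT2 2.2.1, HTSeq 0.6.1, DESeq2 and the build GRCm39. The deposited FPKM values equal the counts divided by exonic length and by the total of counted reads. Symbols were matched by Ensembl ID for 52073 of 56691 genes. The 10 members and the gene lists were chosen with earlier results of these data known.

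Counts were tested with edgeR 4.0.16 in R 4.3.3 (quasi-likelihood, TMM factors, two-sided), and p-values were adjusted by Benjamini-Hochberg for the 10866 genes whose mean reached 1 FPKM. The model was first fitted to all detected genes and adjusted over the same 10866. The fit to the tested genes alone, the stricter one, was made the main one after the calls of both had been seen, and the first is kept as an alternative. Genes below the minimum that are named here were fitted with them and carry no adjusted p. Genes called by an unadjusted p under 0.05 and at least 1.5-fold were counted beside the adjusted calls. CPM are counts relative to the TMM-scaled library size. Exact permutation tests ran on log2(CPM + 1). Ratios used the deposited FPKM, so their size rests on the exonic length of each gene, and have no test. Pathway genes named are those past the looser rule, up to 5 per list by smallest p, and others are named as members of their step after their values were seen. The alternatives included DESeq2 1.42.0, limma 3.58.1, other scalings and filters, and leaving out each library. The counts and medians of the lists without KPF replicate 2 were added after the data had been seen. The edgeR step was tested on simulated data. Some items are not reported here. No replicate pair agreed within sampling noise. Reads are not single molecules, and no interval here covers more than the spread between libraries.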

Additional observations from a re-analysis of the deposited data

How the results depend on the processing

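*Pdk1*, *Dlat* and *Pdhb* were lower in KPF under all 18 alternatives run, with log2 fold changes of -2.11 to -1.43, -1.95 to -1.27 and -1.38 to -0.83. For *Pdk1* and *Dlat* the side of the adjusted threshold depended on the fit, while *Pdhb* did not pass it in any. Without a filter on low genes *Pdk1* (log2 fold change -1.87, adjusted p = 0.0099) and *Dlat* (-1.59, adjusted p = 0.0198) passed in edgeR, and 286 of all genes (1.06%) did, with 1576 higher and 910 lower by the looser rule. In the fit that was run first, to all detected genes with adjustment over the same 10866, which became an alternative after its calls had been seen, *Pdk1* (-1.87, adjusted p = 0.0040) and *Dlat* (-1.59, adjusted p = 0.0094) passed, *Pdhb* did not (adjusted p = 0.0631), and 288 genes (2.65%) passed, with 743 lower. In DESeq2 *Pdk1* (-1.80) and *Dlat* (-1.51) passed among 156 genes. The cause was not tested. The adjusted p of *Pdk1* over all alternatives was 0.0023 to 0.823.

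Counts by the looser rule were 370 higher and 727 lower with library totals, 255 and 201 at a mean of at least 5 FPKM, where fewer genes were tested, 240 higher with limma on log2(FPKM + 1), and 289 higher and 695 lower with limma on log2(FPKM + 0.1). *Pdp2* changed sign with library totals (-0.17), without a filter (-0.0445, and -0.0445 in the fit to all detected genes), with filterByExpr (-0.0076), with limma-voom (-0.10) and with limma on FPKM (-0.14 and -0.20). *Pdk2* did so with limma on FPKM (-0.0088 and -0.015).

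Leaving out 1 library at a time gave 0 to 5 genes at the adjusted threshold. By the looser rule 324 to 911 genes (2.98% to 8.38%) were higher and 246 to 709 (2.26% to 6.53%) were lower. Of the 10 genes 2 to 5 were lower. The extremes came without WPF replicate 3 (324 and 246) and without KPF replicate 3 (911 and 709); 5 adjusted calls came without WPF replicate 4. Without WPF replicate 2 the counts were 355 and 286, and without KPF replicate 1 289 were lower. Then *Mpc1* ranged from -0.62 to 0.092, *Pdk2* from -0.34 to 0.47 and *Pdp2* from -0.37 to 0.37.

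The groups share the replicate numbers 2 and 3. The deviations of same-numbered libraries correlated by only 0.035 and 0.00034, and those of other pairs by -0.196 to 0.149. This gave no sign of pairing, but with 3 libraries per group it cannot exclude it. With the replicate number as a block, KPF replicate 1 and WPF replicate 4 have no partner of the same number. The contrast then rests on replicates 2 and 3 of each group. In that fit 0 genes passed the adjusted threshold in edgeR. By the looser rule 4 of the 10 genes were lower (*Pdk1*, *Dlat*, *Pdhb* and *Pdk4*) and 1 (*Pdp2*) was higher. Of all genes tested 5.07% were lower and 6.25% higher. *Pdk4* was at -1.60 there, with an edgeR p of 0.0083 and an adjusted p of 0.240. *Mpc1* changed sign (0.27). Depth limits *Pdk4* and *Pdp1* most, with 33 to 176 and 9 to 39 reads.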

Other observations

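The branched-chain 2-oxo acid dehydrogenase is built like pyruvate dehydrogenase and is controlled by its own kinase and phosphatase. Of its 5 listed genes 0 passed the looser rule in either direction, and their median log2 fold change was 0.33, or 0.19 without KPF replicate 2, where 0 passed too. *Dbt*, its E2 subunit, had a log2 fold change of 0.43 (SE 0.27) and *Bckdk*, its kinase, of 0.33 (SE 0.28). *Ppm1k*, its phosphatase, ranged from 14.9 to 83.1 CPM in KPF and from 4.92 to 32.6 CPM in WPF, which overlapped.

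Of 15 fasting and PPARalpha-responsive genes, the set to which *Pdk4* belongs by textbook knowledge, 1 was lower and 0 were higher by the looser rule, and the median log2 fold change was 0.049. The lower gene was *Igfbp1*, an insulin-repressed secreted binding protein, at 13.5, 8.40 and 17.1 CPM in KPF, against 80.7, 122 and 12.6 CPM in WPF. With KPF replicate 2 left out, *Cyp4a10* and *Acot1*, both targets of PPARalpha, passed as higher, with log2 fold changes of 1.05 and 1.76, *Igfbp1* was still lower, and the median was 0.013. Of 7 hypoxia-responsive genes listed beside *Pdk1* 5 were tested and 0 passed, with a median log2 fold change of -0.16. *Slc2a1*, a glucose transporter, and *Egln3*, a HIF prolyl hydroxylase, were higher in each KPF library than in any WPF library, as were 7.55% of all genes tested. Their log2 fold changes of 0.57 (SE 0.27) and 0.45 (SE 0.24) did not pass. The other tested genes overlapped and had negative log2 fold changes: *Ankrd37* (-0.46, SE 0.70), *Vegfa* (-0.38, SE 0.30) and *Bnip3* (-0.16, SE 0.36). Without KPF replicate 2, 0 of the 5 passed and the median was -0.17. *Ankrd37* was then at -1.33 (SE 0.69) and *Vegfa* at -0.65 (SE 0.29), while *Bnip3*, *Slc2a1* and *Egln3* were at -0.17, 0.54 and 0.52.

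Per length, *Pdhx* was at 1.49, 0.762 and 1.08 times the level of *Dlat*in KPF, against 0.396, 0.307 and 0.654 times in WPF. *Dlat* was at 0.219, 0.407 and 0.320 times the level of *Dlst*in KPF, against 1.15, 1.13 and 0.525 times in WPF. Neither ratio overlapped between the groups, both were chosen after the values had been seen, and neither was tested.

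Among the other marker lists, the 3 erythroid markers summed to 84.5 to 415 FPKM in KPF and 35.8 to 322 FPKM in WPF, the 4 Kupffer cell markers to 48.6 to 72.2 and 50.0 to 115 FPKM, the 4 sinusoidal endothelium markers to 14.4 to 16.1 and 13.1 to 19.3 FPKM, the 5 adipose markers to 1.98 to 10.2 and 2.26 to 2.70 FPKM, and the 4 exocrine pancreas markers to 3.52 to 4.50 and 1.80 to 6.45 FPKM, all overlapping between the groups.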
